A study of Mus musculus with 4 samples.

Results

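Circular RNAs with a high junction ratio are described here, those for which a large part of the RNA crossing their ends ran around the circle rather than along the linear transcript. Members were chosen by measured values: a circRNA was taken in when its back-splice junction had 10 or more junction reads summed over all libraries and its pooled ratio was 0.2 or more. The pooled ratio is 2 times the junction reads, divided by that product plus the non-junction reads, which run linearly through the same ends. It ranges between 0 and 1. Both counts are summed over the libraries that list the circRNA, so linear reads at its ends in the other libraries are not counted. By this rule 189 of the 13499 distinct circRNAs listed were members. Of the circRNAs listed, 1977 had 10 or more junction reads. The other 1788 of these, with a ratio under 0.2, are called the rest and serve only to show where the members differ. Since these reads and this ratio selected the members, their values are given as a description with no test.

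The reads came from total RNA of lungs of C57BL/6 mice, extracted with TRIzol, with 1 library for each of 4 stages. The pseudoglandular library was of embryonic day 14.5, the canalicular one of day 16.5, the terminal sac one of day 18.5, all before birth, and the alveolar library of newborn day 7.5. How many animals went into a library is not given in the labels. As each stage has a single library, nothing has a check by replicates, no p-value is given and every comparison is between libraries.

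Circular RNAs form when the donor splice site at the end of an exon joins an acceptor site upstream of it in the same transcript. The product has no free ends and is not degraded by exonucleases, so it can outlast the linear RNA made from the same gene. Long flanking introns are known to favour back-splicing. Circles that begin at the second exon of a gene are frequent among those described in mammals, and circles from Hipk3, Cdyl, Rims1 and Slc8a1 are among the widely described ones.

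The back-splice sequences below are those of leading members whose ends lie at annotated exon boundaries, and they are the stretch by which a circle can be told from its linear transcript. They were read from GENCODE M21 transcripts (build mm10) in the direction of transcription, with the last 30 bases of the circle's last exon in lower case and the first 30 of its first exon in capitals. The circles are Strn3 exons 2 to 7 (chr12:51647994-51661713, minus strand), Zfp827 exons 6 to 8 (chr8:79118175-79136663, plus), Ube2k exons 2 to 6 (chr5:65565989-65594548, plus), Nfix exon 2 (chr8:84771784-84772315, minus) and Cdyl exon 2 (chr13:35815909-35816575, plus). Glis3 exon 4 (chr19:28530873-28531986, minus) and Nlrp5-ps exons 2 to 11 (chr7:14578736-14609339, minus) complete the set.
Strn3: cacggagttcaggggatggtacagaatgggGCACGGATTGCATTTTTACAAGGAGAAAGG
Zfp827: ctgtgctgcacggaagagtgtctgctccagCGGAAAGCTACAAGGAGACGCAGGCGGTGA
Ube2k: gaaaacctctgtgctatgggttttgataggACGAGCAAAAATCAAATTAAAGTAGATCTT
Nfix: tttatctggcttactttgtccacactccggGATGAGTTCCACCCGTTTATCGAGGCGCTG
Cdyl: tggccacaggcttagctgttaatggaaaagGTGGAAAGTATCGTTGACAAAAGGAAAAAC
Glis3: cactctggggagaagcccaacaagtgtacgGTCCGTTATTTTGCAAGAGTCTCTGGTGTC
Nlrp5-ps: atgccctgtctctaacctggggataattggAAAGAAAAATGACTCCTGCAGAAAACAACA

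Not every member joins exons of 1 gene. In 15 of the 189 members (7.94%) the ends lay at exons of different genes, against 4 of 1788 in the rest (0.224%). Several pairs are neighbouring members of 1 gene family, such as the glutathione transferase genes Gstm2 and Gstm4, the T-cell receptor beta constant genes Trbc1 and Trbc2, and the keratin genes Krt6a and Krt6b. Over members and the rest, the central 40 bases of the junction also stood in an annotated linear transcript for 15 of the 19 2-gene circles, and 13 of these 15 were members. The median ratio of the 15 was 0.711, and 6 of the 15 were listed in 1 library. For such sequences a read across the junction and a read from the linear transcript cannot be told apart by those 40 bases. The sequences of 3 of them are shown because they read as linear transcripts do: Gm13767 joined to Ptprj (chr2:90381221-90444539, minus), Gstm2 joined to Gstm4 (chr3:107986034-108043959, minus) and Trbc2 joined to Trbc1 (chr6:41539114-41547104, plus), with the first gene's bases in lower case.
Gm13767/Ptprj: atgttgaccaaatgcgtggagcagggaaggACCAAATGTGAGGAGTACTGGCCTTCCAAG
Gstm2/Gstm4: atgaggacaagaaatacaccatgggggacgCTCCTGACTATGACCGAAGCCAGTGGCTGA
Trbc2/Trbc1: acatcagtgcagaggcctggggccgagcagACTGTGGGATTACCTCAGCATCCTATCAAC

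Among members with both ends in 1 transcript, the junction bases of 2 more also stood in a linear transcript. Without all circles of this kind 174 members remained, and 1.15% of them joined 2 genes. The counts at ratios over 0.5 are given below with and without them.

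Depth, as listed junction reads, was 25983, 31218, 36156 and 28332 from the earliest to the last stage, and the 4 libraries listed between 4474 and 5564 circRNAs. A library lists a circRNA from 2 reads upward. The terminal sac library stood apart in the ratio itself: the median ratio over circRNAs with 10 or more junction reads in the library was 0.115 there, against 0.0885 (pseudoglandular), 0.0887 (canalicular) and 0.0975 (alveolar) elsewhere. Circles were found for 5 of 6 alveolar type 2 marker genes, 1 of 5 alveolar type 1 ones and 5 of 5 endothelial ones. Cardiac and striated muscle had 3 of 5, immune cells 4 of 4, and smooth muscle and pericytes 3 of 4. Neurons and neural crest had 3 of 4 and cartilage 0 of 3. These counts describe circles and not mRNA.

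Members held 28760 of 121689 listed junction reads (23.6%). Their number of junction reads had a median of 67 and a highest value of 1836, against a median of 18 and a highest value of 1994 in the rest. The median pooled ratio was 0.327 in members and 0.0355 in the rest. Of the members 83 had a ratio of 0.2 to 0.3, 39 of 0.3 to 0.4, 24 of 0.4 to 0.5, 17 of 0.5 to 0.6, 13 of 0.6 to 0.8 and 13 of 0.8 or more. Just inside the threshold, among circles with 50 or more junction reads, stood Rabgef1 at the threshold itself, Lin54 at 0.202 and a Rasa2 circle at 0.204, and just outside it Lrch1 at 0.197, Cnot6l at 0.195 and Ncoa2 at 0.193. Abundance alone did not make a member: the circle with most reads in the series, from the basement-membrane collagen gene Col4a1, had 1994 junction reads beside 56152 non-junction reads, a ratio of 0.0663, and the surfactant gene Sftpc had 893 beside 370134, a ratio of 0.00480.

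**Figure D1:**
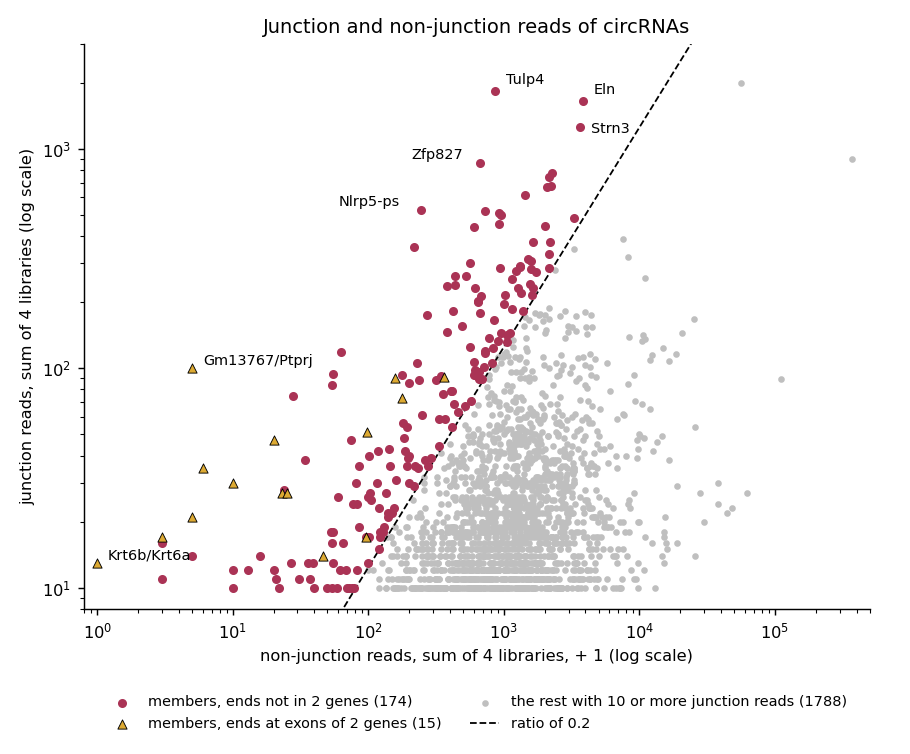
Non-junction reads plus 1 (horizontal) and junction reads (vertical) on log scales, for the 189 members and the 1788 circRNAs of the rest. Both are summed over the libraries that list the circRNA, and the dashed line is a ratio of 0.2. Members whose ends lie at exons of 2 genes (triangles) lie mostly at few non-junction reads, and Col4a1 with 1994 junction reads and Sftpc with 893 are the grey points far to the right.

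The 12 members with most reads held 10637 junction reads, 37.0% of the members' reads. The tubby-like gene Tulp4 led with 1836 junction reads beside 863 non-junction reads, a ratio of 0.810 (95% interval 0.797 to 0.822, counting error only, here and below). It lies at chr17:6137211-6139156, and its ends lie at exon boundaries of different transcripts of the gene. In order of stage it had 450, 488, 409 and 489 junction reads and ratios of 0.808, 0.839, 0.813 and 0.781, the narrowest range among the leading circles listed in all 4 libraries. PCR-amplified reads are not independent molecules, so these intervals can be too narrow.

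The striatin scaffold gene Strn3 followed with 1253 junction reads and a ratio of 0.407 (0.391 to 0.423). In order of stage it had 247, 349, 389 and 268 junction reads and ratios of 0.329, 0.373, 0.514 and 0.420. The zinc finger gene Zfp827 gave 863 junction reads and a ratio of 0.721 (0.7003 to 0.741), from 0.635 in the alveolar library to 0.836 in the terminal sac. Ube2k, a ubiquitin-conjugating enzyme gene, gave 779 reads at a ratio of 0.409, and Mettl9, a histidine methyltransferase gene, 743 at 0.407. For Strn3, Zfp827, Ube2k and Mettl9 the ratio was highest in the terminal sac library.

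Nfix, a nuclear factor I transcription factor gene, gave 677 reads from its exon 2 at a ratio of 0.378. The ubiquitin ligase gene Ttc3 gave 666 reads at 0.391, and the gene of the histone-binding protein Phf21a 618 at 0.463. The chromodomain gene Cdyl gave 519 reads from exon 2 at 0.587 (0.559 to 0.614). The unprocessed pseudogene Nlrp5-ps gave 528 reads at 0.812 (0.787 to 0.834), a ratio close to that of Tulp4. A circle annotated to Gm21992, whose exons overlap those of the splicing regulator gene Rbm4, gave 509 at 0.526, and which of the overlapping genes it belongs to cannot be told. The ratios of these 6 circles ranged from 0.284 (Nfix, alveolar) to 0.855 (Nlrp5-ps, pseudoglandular) over the single libraries.

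**Figure D2:**
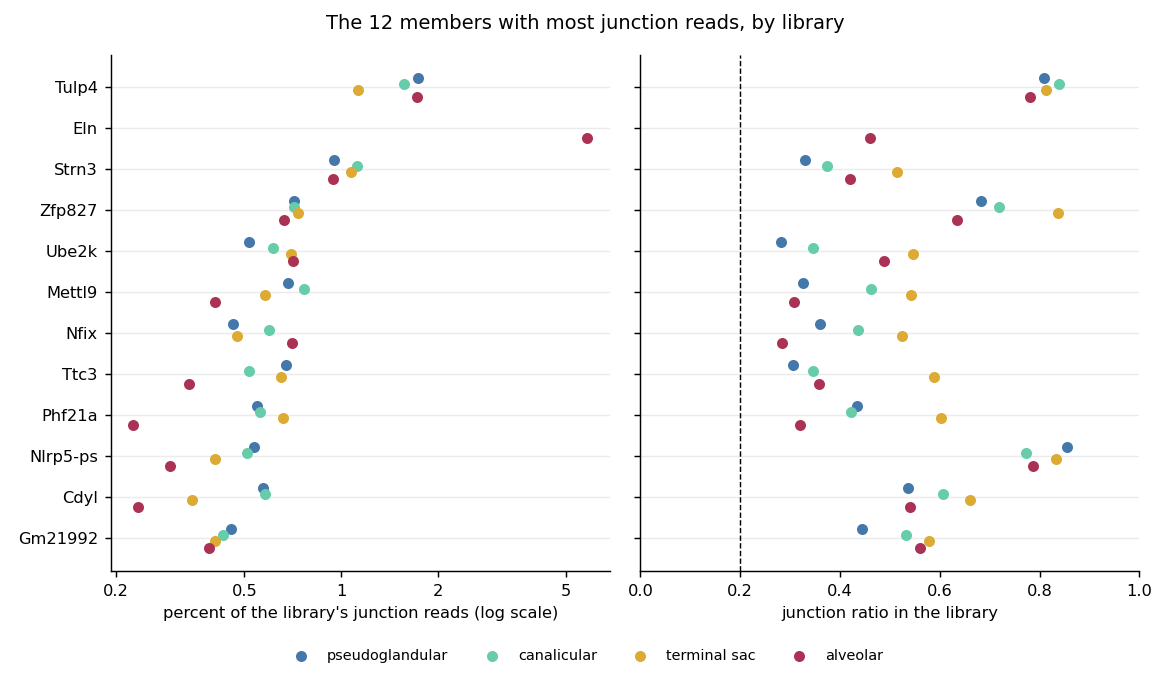
The 12 members with most junction reads, each with its share of the library's junction reads in percent (left, log scale) and its junction ratio (right), with 1 point per library and the rule's value of 0.2 dashed. Tulp4 keeps a ratio between 0.781 and 0.839, Eln has a point for the alveolar library only, and the terminal sac point is the highest ratio for most of the others.

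Eln, the gene of elastin, the core protein of elastic fibres, stood apart from the other leading circles. All its 1646 junction reads were in the alveolar library, where they made up the largest share of any member, beside 3848 non-junction reads (ratio 0.461, 0.447 to 0.476). The circle joins exons 17 to 22 (chr5:134715684-134719222, minus), and the spliced transcript carries the same 14 bases at both of its ends. The capitals below mark that repeat at the start and at the end of the circle, with 15 bases on each side; within the repeat, the joining point of a read cannot be placed. A further 3 members had a repeat of 6 or more bases at their ends, which makes 4 of 189 members (2.12%), against 46 of 1788 in the rest (2.57%).
Eln, start: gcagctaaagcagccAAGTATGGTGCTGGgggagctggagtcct
Eln, end: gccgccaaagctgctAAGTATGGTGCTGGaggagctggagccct

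At high ratios the members were of mixed kinds. Of 42 members with a ratio over 0.5, 15 joined exons of 1 annotated transcript and 11 had ends in 2 genes. The junction bases of 12 of the 42 also stood in a linear transcript, and without these 12 there were 30 members, 14 joining exons of 1 transcript and 0 with ends in 2 genes. Tcf20, a transcriptional co-regulator gene, gave exon 2 alone (442 reads, ratio 0.595, 5772 bases) and exons 2 to 3 (356 reads, 0.766, 5866 bases), the longest spliced circles of the group. Both Tcf20 circles had their lowest ratio in the pseudoglandular library (0.484 and 0.689) and their highest in the terminal sac (0.657 and 0.837). Rims1, a gene of the presynaptic active zone, gave a circle of 75 reads at a ratio of 0.847 (0.780 to 0.900), with 25, 23, 19 and 8 junction reads in order of stage. Ankib1, a ubiquitin ligase gene, gave 500 reads at 0.514, the microtubule minus-end gene Camsap1 174 at 0.563, the Kruppel-like zinc finger gene Glis3 238 at 0.557 and the Polycomb methyltransferase gene Ezh2 263 at 0.502 for exons 2 to 3. Krt6b joined to Krt6a, whose junction bases stand in a linear transcript, had a ratio of 1, on 13 reads in 1 library.

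The high ratio was next read in a library that had not chosen the circles. The rule was applied to 3 libraries at a time, and the ratio was then read in the 4th for every circle with 5 or more junction reads there. Of circles that met the rule in the other 3, 92 of 133 (69.2%, 60.6 to 76.9) were at 0.2 or more in the pseudoglandular library. In the canalicular library these were 105 of 125 (84.0%, 76.4 to 89.9), in the terminal sac 110 of 116 (94.8%, 89.1 to 98.1) and for the alveolar 100 of 135 (74.1%, 65.8 to 81.2). Of circles under 0.2 in the other 3, these shares were 14 of 602 (2.33%), 24 of 728 (3.30%), 89 of 801 (11.1%) and 22 of 614 (3.58%) in order of stage. The junction reads that set this minimum also enter the ratio, so circles with few reads, and those not listed in the library, drop out. Over every circle listed in the library, a setting added after seeing the data, the shares for circles that met the rule in the other 3 were 62.8%, 80.3%, 89.8% and 70.1% in order of stage, against 1.45%, 2.36%, 8.72% and 2.36% for the others. A further 30, 33, 25 and 31 circles that met the rule in the other 3 were not listed and have no ratio there. The circles counted are set by 3 libraries and not by all 4, and 14 of the 133, 6 of the 125, 1 of the 116 and 8 of the 135 are not among the 189 members. The stages differ, so these libraries are not replicates.

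**Figure D3:**
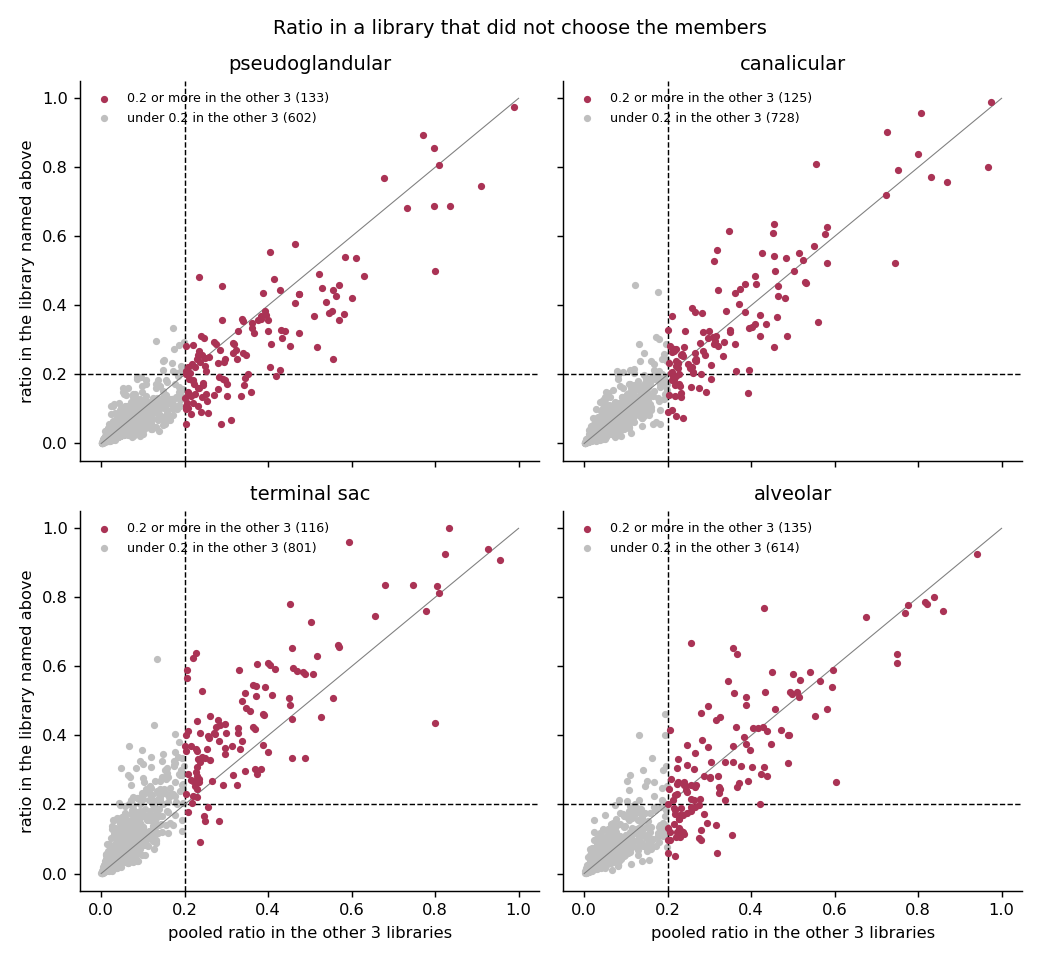
For each library, the pooled ratio in the other 3 libraries (horizontal) and the ratio in the library itself (vertical), 1 point per circle with 5 or more junction reads there; dashed lines mark 0.2 and the diagonal equal ratios. Most points at 0.2 or more in the other 3 lie above 0.2 in the library left out, 110 of 116 in the terminal sac and 92 of 133 in the pseudoglandular.

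For some circles the ratio in 1 library lay on the other side of 0.2 from the pooled ratio of the other 3. Hdgfl3, a gene of the hepatoma-derived growth factor family, had a ratio of 0.318 over the other 3 libraries and 0.0602 in the alveolar. In the other direction, an Espl1 circle from the separase gene had 0.134 pooled over the other 3 and 0.621 in the terminal sac. Its alveolar ratio of 0.333 was also over 0.2, and it had only 28 junction reads summed over the libraries listing it.

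Of the 122 members listed in all 4 libraries, 65 (53.3%) had a ratio of 0.2 or more in each of them. The median difference between a member's highest and lowest library was 0.195. The ratio was highest in the terminal sac library for 74 of the 122 (60.7%) and lowest in the pseudoglandular for 60 (49.2%). In the 773 circles of the rest listed in all 4, these shares were 49.7% and 34.3%, so the order of the libraries was not particular to the members.

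In structure the members differed from the rest in several properties that the rule did not use. Both ends lay at exon boundaries of 1 annotated transcript in 134 of 189 members (70.9%, 63.9 to 77.3), against 1631 of 1788 in the rest (91.2%, 89.8 to 92.5). Over all 13499 circRNAs listed, most with fewer reads, this share was 74.7%, within the interval of the members. That set has no minimum of junction reads, unlike members and the rest, so it does not show which of the 2 stood apart. The deposited type was exon for 147 members (77.8%) and for 1741 of the rest (97.4%), and for 85.7% of all listed. The other members were deposited as intergenic region (29, 15.3%) or intron (13, 6.88%). In the rest these were 14 (0.783%) and 33 (1.85%), so both types were more frequent among members. Over all listed, with no minimum of reads, they were 3.64% and 10.7%. Among the intergenic ones are single exons that M21 annotates, such as the exon 2 circles of the sodium-calcium exchanger gene Slc8a1 (446 reads) and of the protocadherin gene Fat3 (264 reads). All 4 libraries listed 122 members (64.6%, 57.3 to 71.4) and 773 of the rest (43.2%, 40.9 to 45.6). The members also have more reads, and this was not evened out; among circles with 20 or more junction reads the shares were 80.7% in members and 76.7% in the rest.

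Circles starting at the second exon were more frequent among members. Of the 134 members with both ends in 1 transcript, 79 began at exon 2 (59.0%, 50.1 to 67.4), against 645 of 1631 in the rest (39.5%, 37.2 to 42.0). Of members 0 began at exon 1 and 0 ended at the last exon, against 4 and 2 circles of the rest. The annotated start codon lay inside 46 of 129 members from coding transcripts (35.7%, 27.4 to 44.6) and 20.2% of the rest (18.2 to 22.2). Most of these circles began at exon 2, 43 of the 46 members and 274 of 326 in the rest. The start codon share is therefore not separate from the share starting at exon 2. Wholly inside coding sequence lay 80 of these 129 members (62.0%, 53.1 to 70.4) and 78.8% of the rest (76.8 to 80.8).

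Single-exon circles were also more frequent among members. They made up 31 of 134 members (23.1%, 16.3 to 31.2) and 111 of 1631 in the rest (6.81%, 5.63 to 8.14). Exon 2 alone formed 18 members (13.4%) and 56 circles of the rest (3.43%). Beside Nfix, Cdyl, Slc8a1, Fat3 and Tcf20 these 18 included the homeodomain-interacting kinase gene Hipk3 (330 reads, ratio 0.234, 1099 bases), the chromatin remodeller gene Ep400 (315 reads, 0.295, 1370 bases), Setbp1 (292 reads, 0.309) and the PWWP-domain gene Pwwp2a (232 reads, 0.432). The single-exon members had a median length of 873 bases, against 730 in the rest. Over all members with both ends in 1 transcript the median was 3 exons (3 to 4) and 681.5 spliced bases (630 to 758), against 4 exons and 605 bases (585 to 625) in the rest.

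**Figure D4:**
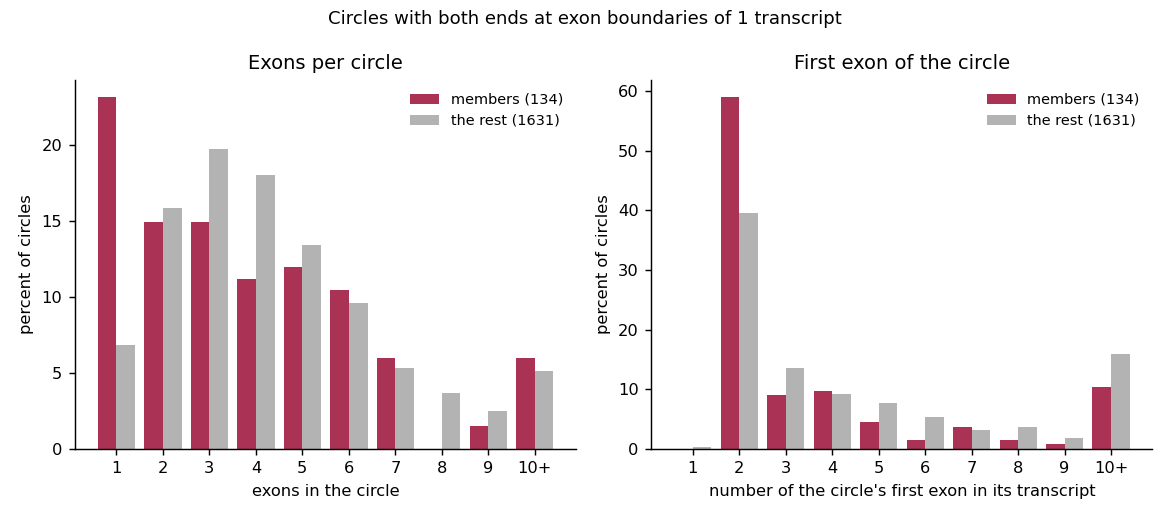
Percent of circles by number of exons (left) and by the number of the circle's first exon in its transcript (right), for the 134 members and the 1631 circles of the rest that have both ends at exon boundaries of 1 transcript; values of 10 and more are put together. Circles of 1 exon make up 23.1% of members and 6.81% of the rest, and circles starting at exon 2 make up 59.0% and 39.5%.

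The introns beside the members were longer. The intron before the circle had a median of 18884 bases in members (14545 to 22007) and 11461 in the rest (10077 to 12625), and the intron after it 21169 (16536 to 26057) and 9233 (8518 to 9839). Introns at the start of genes are long in general, and among circles starting at exon 2 the intron before had a median of 21917 bases in members and 19643 in the rest, while the intron after had 19376 and 10579. Among circles starting at a later exon the intron before had a median of 9617 bases in members and 6974 in the rest, and the intron after 22652 and 7659. The longest intron after a member was 272276 bases at Cacna1c, a calcium channel gene, whose exons 2 to 3 gave 243 reads at a ratio of 0.239. Not every member lay between long introns. The Ttn circle of exons 123 to 127, from the sarcomere gene titin, lies between introns of 436 and 366 bases and had a ratio of 0.386 on 56 reads. Circles that share a host or an end are not independent, and circles of the members were not matched to the rest for reads.

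Members shared hosts and ends with other circles. A host gene was assigned to 163 members, 160 by the deposited identifiers and 3 from M21, and these came from 139 genes. Of the members 85 shared an end with another circle of 10 or more reads (45.0%), close to the share in the rest (41.6%), and 37 shared one with another member. Of the 139 hosts 66 also gave circles with a ratio under 0.2. Among the 72 hosts with 2 or more circles of 10 or more reads, the circle with most reads was a member in 67. The highest ratio in such a host had a median of 0.308 and the lowest 0.0488. These values are descriptions, since junction reads enter the rule and every such host has a member. The rule therefore favours the circle with most reads, and the highest ratio has to be 0.2 or more.

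Among the hosts with most members were Nlrp5-ps with 4, and Glis3, the long non-coding RNA gene Gm13483 and Ube2cbp with 3 each. Of the 4 Nlrp5-ps members 3 lie within 4 bases of each other and had 528, 118 and 84 reads, the last 2 in 1 library each. Put together they had 223, 159, 265 and 83 reads in order of stage. Ezh2 shows how 2 circles with the same start can differ: exons 2 to 3 had 263 reads at a ratio of 0.502 (0.464 to 0.539) and exons 2 to 15 had 106 at 0.206 (0.173 to 0.241). Both Ezh2 circles had fewest reads in the alveolar library, with 81, 86, 58 and 38 for the shorter in order of stage and 50, 28, 21 and 7 for the longer. In Akap7, a gene of kinase-anchoring protein, exons 2 to 5 and 2 to 7 had 213 and 201 reads and ratios of 0.385 each.

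By function the members were spread over many groups, and 127 of them had hosts in none of the 17 lists used or no host. Over all 1977 circles with 10 or more reads 9.56% were members. Hosts of widely described circRNAs gave 13 members among 54 circles (24.1%), from 12 of 23 hosts, a list of genes known for abundant circles and so no independent evidence. The list of zinc finger and other transcription factors gave 13 of 93 (13.98%). It counts in the tubby-like gene Tulp4, its leading host by reads, although Tulp4 is not described here as a transcription factor. Next came Zfp827 and Nfix, and the list included the Ets factor gene Elf2 (287 reads, 0.381) and Zfp148 (256 reads, 0.310). Chromatin regulators gave 11 of 102 (10.8%), led by Phf21a, Cdyl, Ep400 and the histone methyltransferase gene Nsd2 (273 reads, 0.239). The ubiquitin system gave 6 of 53 (11.3%), among them Ube2k, Ttc3, Ankib1 and the deubiquitinase gene Usp3 (453 reads, 0.498).

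Chromatin regulators and the ubiquitin system were near 9.56%, and the groups that follow were near or under it. Small GTPase regulators gave 6 members of 78 (7.69%), led by Arhgap5 (482 reads, 0.227) and Rasa2 (301 reads, 0.515), and protein kinases and phosphatases 6 of 95 (6.32%). Cell cycle, kinetochore and DNA repair hosts gave 5 of 61 (8.20%), with Rad52 (203 reads, 0.385), the translesion polymerase gene Rev1 (183, 0.464) and the mismatch repair gene Pms1 (106, 0.483). Membrane transport and trafficking hosts gave 4 of 47 (8.51%). Hosts for RNA-binding and splicing proteins gave 2 of 57 (3.51%), for the cytoskeleton and cell adhesion 2 of 51 (3.92%) and for the extracellular matrix 2 of 42 (4.76%), these being Eln and Fn1, the gene of fibronectin (12 reads).

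Cell type lists were small. Cardiac and striated muscle hosts gave 4 members of 11 circles (36.4%), led by Slc8a1, Cacna1c and Ttn. Neurons with neural crest and neuroendocrine cells gave 2 of 3, both from Rims1. Smooth muscle, pericytes and fibroblasts gave 2 of 20, lung epithelium 1 of 15 (6.67%), endothelium 1 of 8 (12.5%) and immune cells 0 of 4. The 6 alveolar type 2 marker genes, 5 of which had circles, gave 0 members.

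The share of junction reads held by members was similar between libraries. In order of stage it was 24.1% (23.6 to 24.7), 23.4% (22.9 to 23.9), 21.8% (21.4 to 22.2) and 25.7% (25.2 to 26.3). Eln gave 1646 of the 7295 alveolar junction reads of members. Without all circles that have repeats at their ends or few alignment patterns, the share was 24.8%, 24.03%, 22.7% and 22.5% in order of stage. That setting takes out Eln together with other circles, members or not. The libraries listed 159, 156, 164 and 158 of the 189 members. In lung tissue as a whole, fewer cells of a type and less RNA per cell cannot be told apart.

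Single members were compared between libraries by the ratio of their shares of junction reads, called at 2-fold or more when the 95% interval excluded 1. A circle not listed in 1 of the libraries was set to 3 reads there, and its fold is then written "at least". This wording rests on the 3 reads and leaves counting error aside, so the interval end nearest 1 is given beside such folds. The filter behind the listing is not given, so a circle that is not listed need not have had few reads. Between the alveolar and pseudoglandular libraries 143 members had 10 or more reads in the pair. Of these 13 were higher (9.09%) and 30 lower (20.98%), beside 12.2% higher and 17.4% lower of all 933 circRNAs tested. The median log2 ratio was -0.26 in members and -0.12 in all tested. With libraries scaled by the median of ratios 18 members were higher and 27 lower, beside 15.8% higher and 13.7% lower of all tested.

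Among the higher members Eln was at least 503-fold up (interval from 172), with 1646 alveolar reads and no listing in the pseudoglandular library. Fat3 exon 2 had 209 reads in the alveolar library and 18 in the pseudoglandular, a ratio of shares of 10.6 (6.57 to 18.3), while the canalicular had 9 and the terminal sac 28. The cation channel gene Trpc6, which is listed among smooth muscle and pericyte markers, had 104 alveolar and 18 pseudoglandular reads (5.30, 3.19 to 9.29), with 25 and 49 between. The kinase gene Prkce had 48 and 7 (6.29, 2.83 to 16.5). The mannosyltransferase gene Alg12 had 22 and 2, the transporter gene Mfsd6 20 and 4, Ep400 exon 2 71 and 30 and Rad52 55 and 23. The 2 others among the leading 10 were the 2-gene circles of Gstm3 with Gstm1 and Sp100 with Gm7609, not listed in the pseudoglandular library. Of the other smooth muscle and pericyte markers Acta2 had no circle, and those of Myh11 and Pdgfrb had 3, 0, 5 and 5 junction reads in order of stage, too few to compare.

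Among the lower members Hdgfl3 exons 2 to 5 had 5 alveolar and 78 pseudoglandular reads, a 17.0-fold lower share (6.99 to 53.8), with 40 and 43 reads in the libraries between. Ezh2 exons 2 to 15 was 7.79-fold lower (3.51 to 20.4). Spopl, a substrate adaptor gene of ubiquitin ligases, was at least 10.9-fold lower (interval from 3.39). It had 30 pseudoglandular and 62 terminal sac reads and was listed in neither of the other libraries. Arhgap5, the gene of a GTPase-activating protein, had 52 alveolar and 180 pseudoglandular reads (3.77-fold lower, 2.76 to 5.24), with 161 and 89 reads in the libraries between.

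Pms1 had 7 alveolar and 39 pseudoglandular reads, and Tasp1, a gene of a protease that cleaves chromatin regulators, 5 and 23. Ttn exons 123 to 127 had 7 and 38 (5.92-fold lower, 2.61 to 15.7). Slc8a1 exon 2 had 165, 79, 73 and 129 reads in order of stage. Of the other cardiac and striated muscle markers Myh6 and Tnnt2 had no circle, and those of Ryr2 had 11, 0, 0 and 2 junction reads in order of stage. The part of such cells in these values was not tested. Also among the leading lower members were the 2-gene circles of Gm13767 with Ptprj and Mfap1b with Mfap1a, and an Nlrp5-ps circle. By its exact ends this Nlrp5-ps circle was at least 30.5-fold lower (interval from 10.1), with 84 pseudoglandular reads. With its near junctions counted in, Nlrp5-ps had 83 alveolar and 223 pseudoglandular reads.

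**Figure D5:**
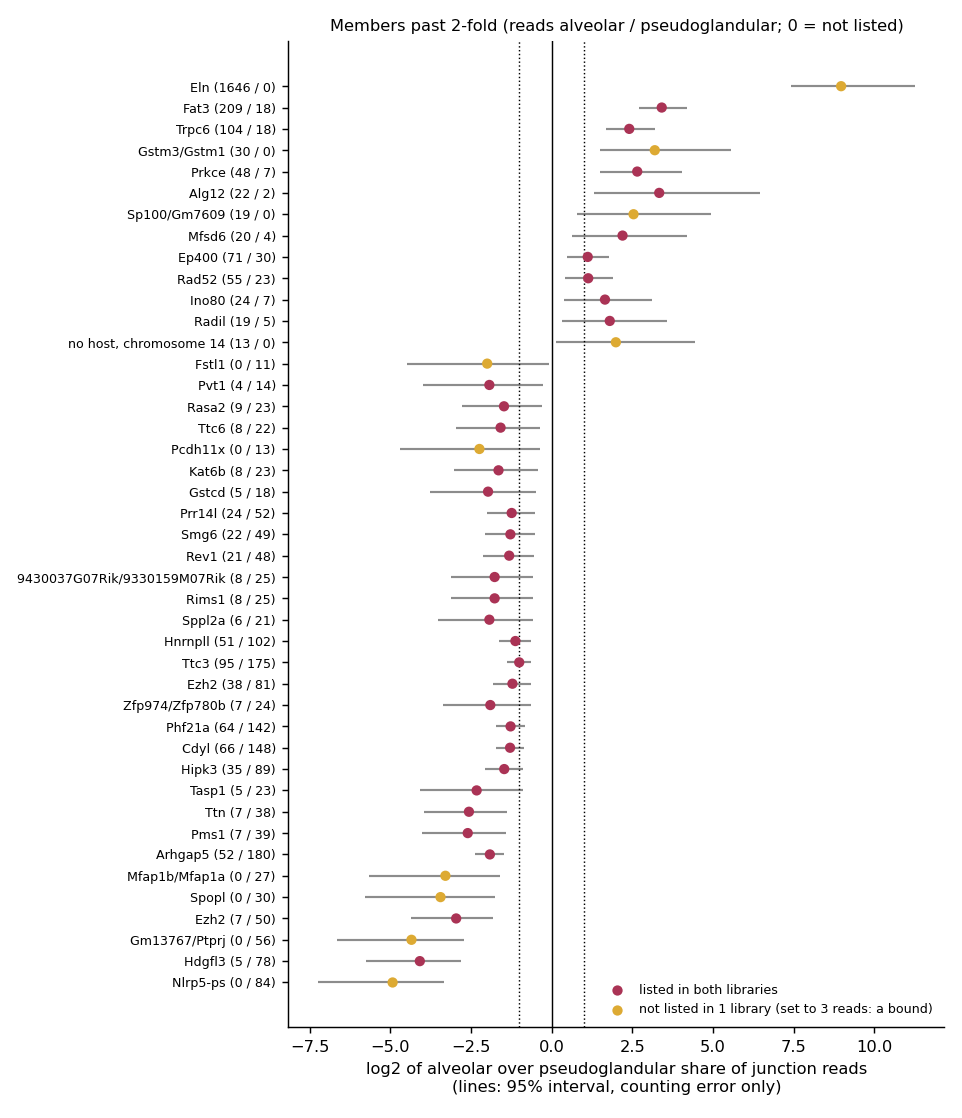
Members called between the alveolar and pseudoglandular libraries, 13 higher and 30 lower, as the log2 ratio of shares of junction reads (points) with 95% intervals that cover counting error only (lines); dotted lines mark 2-fold, and brackets give alveolar and pseudoglandular reads. Eln, with 1646 alveolar reads, lies farthest to the right and rests on 3 reads set for the pseudoglandular library. Hdgfl3, with 5 and 78, is among the lowest of the circles listed in both libraries.

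Between the canalicular and pseudoglandular libraries 14 members were higher and 16 lower of 141, beside 8.16% higher and 9.83% lower of all 1017 tested. With libraries scaled by non-junction reads this split became 21 higher and 11 lower, beside 12.8% higher and 7.47% lower of all tested, which turned the same way. The highest ranked was Trbc2 with Trbc1, a 2-gene circle listed in the canalicular library alone with 90 reads. Ep400 exon 2 had 98 canalicular and 30 pseudoglandular reads (2.72-fold higher, 1.79 to 4.24), and Glis3 exon 4 had 73 and 23 (2.64, 1.63 to 4.42). A circle of the centrosomal gene Cep112, exons 22 to 25, had 19 reads in the canalicular library and was not listed in the pseudoglandular. Among lower members, a Ptprm circle, from a receptor phosphatase gene, had no listing and 26 pseudoglandular reads, and a Sppl2a circle, from an intramembrane protease gene, had 2 and 21. Slc8a1 had 79 canalicular and 165 pseudoglandular reads (2.51-fold lower, 1.91 to 3.32).

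Between the terminal sac and canalicular libraries 16 members were higher and 24 lower of 151, beside 8.94% and 11.2% of all 1208 tested. Both circles of Crebrf, a regulator of the CREB3 factor, were higher: exons 2 to 4 had 50 terminal sac and 12 canalicular reads (3.60, 1.89 to 7.42), and exons 3 to 4 had 97 and 37 (2.26, 1.54 to 3.40). Tmem56 had 18 and 2, and Tasp1 39 and 12. Of the 24 lower members 7 were 2-gene circles, among them Trbc2 with Trbc1 and Gm13767 with Ptprj, and the 5 of highest rank held 3 of these. Tmem132d, a transmembrane gene, had 2 terminal sac and 15 canalicular reads, and a circle with no host on chromosome 7 (chr7:27740957-27770631) had 8 and 32. Without circles whose junction bases stand in a linear transcript, 13 members were higher and 18 lower.

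Between the alveolar and terminal sac libraries 16 members were higher and 17 lower of 154, beside 10.5% and 11% of all 1123 tested. With libraries scaled by the median of ratios the split was 19 and 13, beside 12.6% higher and 8.19% lower of all tested, which turned the same way. Fat3 had 209 alveolar and 28 terminal sac reads (9.53, 6.40 to 14.7) and Eln was at least 700-fold higher (interval from 239). Gstm3 with Gstm1, Ptprm and the Rap effector gene Radil had 30, 21 and 19 alveolar reads and were not listed in the terminal sac library. Among lower members, the zinc finger gene Rreb1 had 14 alveolar and 77 terminal sac reads (4.31-fold lower, 2.42 to 8.25), Hdgfl3 5 and 43, and Tasp1 5 and 39. Phf21a, ranked after these, had 64 and 238 (2.91-fold lower, 2.20 to 3.90). These comparisons share libraries, so a circle high in 1 of them enters 2 of the comparisons.

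The junction ratio itself was compared by the odds of junction to non-junction reads, relative to the median over all circRNAs tested, with the same 2-fold limit. That median moved by 0.24 log2 units between alveolar and pseudoglandular, 0.24 between canalicular and pseudoglandular, 0.55 between terminal sac and canalicular and -0.50 between alveolar and terminal sac. The pooled ratio chose the members, so the counts that follow are descriptions. Between the alveolar and pseudoglandular libraries 14 members were higher and 13 lower of 130, beside 9.52% and 11.7% of all 798 tested.

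Rad52, a gene of homologous recombination, had a ratio of 0.558 in the alveolar library and 0.214 in the pseudoglandular, with 0.311 and 0.478 between. Its relative log2 odds were 1.96 (1.17 to 2.74), so both its reads and its ratio were higher. Nsd2 had 0.331 and 0.137 (1.41, 0.84 to 1.98), with 55 and 59 junction reads. Alg12 had 0.415 and 0.0727.

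On the lower side Hdgfl3 had a ratio of 0.0602 in the alveolar library and 0.289 in the pseudoglandular (relative log2 odds -2.78, -4.05 to -1.50), with 0.257 and 0.528 between. Hipk3 had 0.104 and 0.285 (-2.01, -2.60 to -1.42), Rabgef1, a Rab5 exchange factor gene, 0.115 and 0.333 (-2.16, -3.22 to -1.10), and Arhgap5 0.171 and 0.294 (-1.24, -1.71 to -0.77). Hipk3 held between 0.268 and 0.285 in the 3 earlier libraries, so that its alveolar value alone stands apart. Fat3 had ratios of 0.585 and 0.429 and was not called by ratio.

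Over the single steps, 13 members were higher and 7 lower of 126 by ratio in the canalicular against the pseudoglandular, beside 6.62% and 8.17% of all 906 tested. In the terminal sac against the canalicular 5 were higher and 15 lower of 130, beside 6.89% and 9.27% of 1089. In the alveolar against the terminal sac 6 were higher and 10 lower of 139, beside 9% and 7.5% of 1000. Hdgfl3 was higher in the terminal sac than in the canalicular library (0.528 and 0.257) and lower in the alveolar than in the terminal sac (0.0602 and 0.528). Arhgap5 was lower in the terminal sac than in the canalicular library (0.166 and 0.239), where most circles had a higher ratio.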

How the data were processed

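Total RNA of 4 mouse lung libraries was sequenced. Per the submitters' processing notes, cutadapt, HISAT2 2.0.5, StringTie, HTSeq and BWA were used with build mm10, with no roles given; the column layout is that of CIRI. Per the file headers, each deposited table gives per circRNA a count of junction reads and a count of non-junction reads, not normalized, and lists circRNAs from 2 junction reads upward. The deposited ratio is a fraction, 2 times the junction reads over that product plus the non-junction reads, as the authors' tables define it. The deposited alignment patterns (a string of 3 numbers) were used to find circRNAs resting on few patterns.

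Counts were summed over the libraries listing a circRNA, with blank non-junction cells read as 0. Ends were matched to GENCODE M21 exons (4647 of 4653 deposited gene identifiers were in it), preferring the host gene, then the annotation's rank, then the longest spliced transcript where several matched. Shares have exact Clopper-Pearson intervals, ratios of junction reads exact conditional binomial intervals, odds Woolf intervals with 0.5 added, and medians order-statistic intervals, all at 95% and for counting error only. The functions for intervals and calls were tested on simulated data. Python 3.11.15, numpy 2.4.6, pandas 2.3.3, scipy 1.17.1 and matplotlib 3.10.9 were used.

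Members and lists were chosen with earlier results of these data known. Members named were the 12 with most reads, the 10 highest ratios from 50 reads upward, the first 10 called members each way between alveolar and pseudoglandular and the first 5 each way between consecutive stages, by the interval end nearest 1, the first 4 each way by ratio, the leading members of each list, type and host, and those nearest the threshold; others were chosen after their values were seen. The grouping by 2 genes and by junction bases in linear transcripts was also made after seeing the data. Some members that this rule names are not reported here.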

Additional observations from a re-analysis of the deposited data

How the results depend on the processing

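No paired analysis was possible because each stage has 1 library. With 20 or more junction reads required, members were 14.9% of circRNAs, 79.3% of them had both ends in 1 transcript, 84.8% were of type exon and 80.7% were in all 4 libraries. Among members listed in all 4 libraries these were 85.2% in 1 transcript and 90.2% of type exon, 1.64% joined 2 genes, and members held 22.4%, 22.1%, 20.3% and 19.0% of junction reads in order of stage. Without repeat-end and few-pattern circles the shares were 24.8%, 24.03%, 22.7% and 22.5%. Without junctions found in linear transcripts, an alternative added after seeing the data, 1.15% joined 2 genes and the canalicular share was 22.9%. Leaving out 1 library gave 153 to 186 members, 10.6% to 11.7% of circRNAs with enough reads.

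By junction reads, 9 members were higher between canalicular and pseudoglandular with 20 or more reads in the pair. With circRNAs listed in both libraries only, 9 were lower in that pair, 9 higher and 15 lower between terminal sac and canalicular, and 10 higher between alveolar and terminal sac. By ratio with odds set against 1, members higher and lower were 22 and 2 between canalicular and pseudoglandular, 23 and 4 between terminal sac and canalicular, and 3 and 30 between alveolar and terminal sac; the median shift is left in by construction. Of all circRNAs tested this setting called 10.9% and 4.86%, 20.1% and 2.66%, and 3.6% and 19.7% in the same pairs, one-sided the same way. With 20 or more reads, 3 were higher by ratio between terminal sac and canalicular and 1 between alveolar and terminal sac. For the others the cause was not tested. Scaling by the median of ratios moved the median of all circRNAs by 0.20 log2 between alveolar and pseudoglandular and 0.18 between alveolar and terminal sac; scaling by non-junction reads moved it by 0.17 in the first pair and by 0.18 between canalicular and pseudoglandular. All 353 alternative values of 50 single-member results kept their direction and call. A circle that a setting leaves out has no value there, so that setting cannot test it. This holds for circles not listed in a library when listing in both was required, and for Eln without repeat-end circles. It also holds for Nlrp5-ps circles merged into a near junction, and for circles whose junction bases stand in linear transcripts when these were left out. The planned match of flanking introns was not run, since no genome was used here. Circles with few reads are limited by depth.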
